A study of Mus musculus with 9 samples.

Results

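Troponins, striated muscle actin and muscle creatine kinase were examined in hindgut RNA of mouse embryos, as 9 genes chosen by symbol: the troponin T genes Tnnt1, Tnnt2 and Tnnt3, the troponin I genes Tnni1 and Tnni2, the troponin C genes Tnnc1 and Tnnc2, the actin gene Actc1, and Ckm. Every probe set that the platform annotation assigned to a single one of these symbols was used. This gave 14 probe sets of 45037, and 9 genes of the 18193 with a probe set of their own. By isoform class, 3 genes with 5 probe sets were cardiac (Tnnt2, Tnnc1, Actc1), 2 genes with 2 probe sets were slow skeletal (Tnnt1, Tnni1), and 4 genes with 7 probe sets were fast skeletal (Tnnt3, Tnni2, Tnnc2, Ckm).

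RNA of dissected terminal colon was hybridised to Affymetrix MOE430 version 2 arrays, 3 for each of 3 groups. Ednrb null embryos carried lacZ alleles on both copies of Ednrb, which encodes endothelin receptor B. Ednrb NCC null embryos, titled Ednrb-FLEX, were labelled as mutant for Ednrb in NCC cells, and the labels name neither the Cre line nor what NCC stands for. Wild type embryos were the controls. The sample labels put all embryos at embryonic day 14 and the series text at 14.5 days, and whether an array held 1 embryo or a pool is not given there, so the tests measure the spread between these samples, which may be partly technical.

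The troponin complex sits on the thin filament of striated muscle and makes contraction depend on calcium: troponin C binds calcium, troponin I blocks the actin-myosin interaction, and troponin T ties the complex to tropomyosin. Heart, slow skeletal and fast skeletal muscle use different genes for each subunit, but embryonic skeletal muscle also expresses the cardiac genes Tnnt2 and Actc1, and Tnnc1 is shared by heart and slow skeletal muscle. The muscle layers of the gut wall are smooth muscle, which contracts through myosin phosphorylation and does not use troponin. A cardiac or skeletal label below is therefore the usual name of an isoform, not a cell type found in these samples.

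The array medians lay between 111 and 115 intensity units, and log2 values of any 2 arrays correlated between 0.9881 and 0.9967 over probe sets. Wild type array 1B stood apart on 9 mesothelium genes, with a mean log2 intensity of 6.89, against 8.45 and 8.23 in wild type arrays 1C and 1D. Without it, Tnnt2 was called in both comparisons of Ednrb null, at differences of -1.41 and -1.22 against wild type. Ednrb itself had a mean log2 intensity of 9.13 ± 0.33 in Ednrb null arrays, 11.17 ± 0.14 in Ednrb NCC null arrays and 11.02 ± 0.07 in wild type arrays (SD, n = 3 each). It fell by 1.89 in Ednrb null against wild type (limma, adjusted p = 2.88e-05), while Ednrb NCC null against wild type gave 0.15 (adjusted p = 0.696). A probe set outside the deleted part would not report the deletion, and where the probes lie was not examined here.

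Below, a level is a log2 intensity of 1 probe set, and a difference is the first-named group minus the second on that scale. Levels of different probe sets are not comparable with each other. A probe set was called when its limma p, adjusted over all 45037 probe sets, was under 0.05, and dim when its mean lay under the 40th percentile of all probe sets. The same 3 wild type arrays served both mutant groups, and each mutant group also serves in 2 of the 3 comparisons.

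Tnnt2, the troponin T of heart and of embryonic skeletal muscle, was the gene that separated Ednrb null hindgut from both other groups. Probe set 1418726_a_at gave 6.02, 6.45 and 5.73 in Ednrb null arrays, 7.74, 7.79 and 7.65 in Ednrb NCC null arrays and 7.77, 7.03 and 7.93 in wild type. Probe set 1424967_x_at gave 6.07, 6.52 and 6.41 in Ednrb null arrays, 7.74, 7.86 and 7.84 in Ednrb NCC null arrays and 7.66, 7.05 and 8.06 in wild type. On both, every Ednrb null array lay below every other array, and the Ednrb NCC null and wild type arrays overlapped. In bulk RNA, fewer cells expressing the gene and less RNA per cell cannot be told apart.

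Tnnt2 fell by 1.51 on 1418726_a_at in Ednrb null against wild type (SE 0.22, 95% confidence interval -2 to -1.02, limma adjusted p = 0.0026). On 1424967_x_at it fell by 1.26 (SE 0.21, interval -1.72 to -0.79, adjusted p = 0.00538). These are levels of 35.1% and 41.9% of wild type. Against Ednrb NCC null it fell on both, with differences of -1.66 (SE 0.22, adjusted p = 0.00271) and -1.48 (SE 0.21, adjusted p = 0.00356), or 31.6% and 35.8% of the level there. Ednrb NCC null against wild type gave differences of 0.15 and 0.22, with intervals of -0.34 to 0.65 and -0.24 to 0.69 (adjusted p = 0.812 and 0.674). The calls in both comparisons were lost with the Actb 3′ to 5′ ratio as a covariate (adjusted p from 0.116 to 0.172). Against wild type the differences were then -1.45 and -1.24. That ratio ran from 0.8 to 0.9 in Ednrb null, 1.03 to 1.4 in Ednrb NCC null and 1.08 to 1.32 in wild type. Since Ednrb null arrays did not overlap the others on it, this covariate cannot be separated from the group. Whether the probe sets share probes is not known here, so they are not separate measurements of the gene. The remaining Tnnt2 probe set, 1440424_at, was dim, at the 16.1 percentile, and ranged from 4.51 to 4.61 in Ednrb null arrays, 4.51 to 4.78 in Ednrb NCC null arrays and 4.3 to 4.51 in wild type. It was not called in any of the 3 comparisons.

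**Figure D1:**
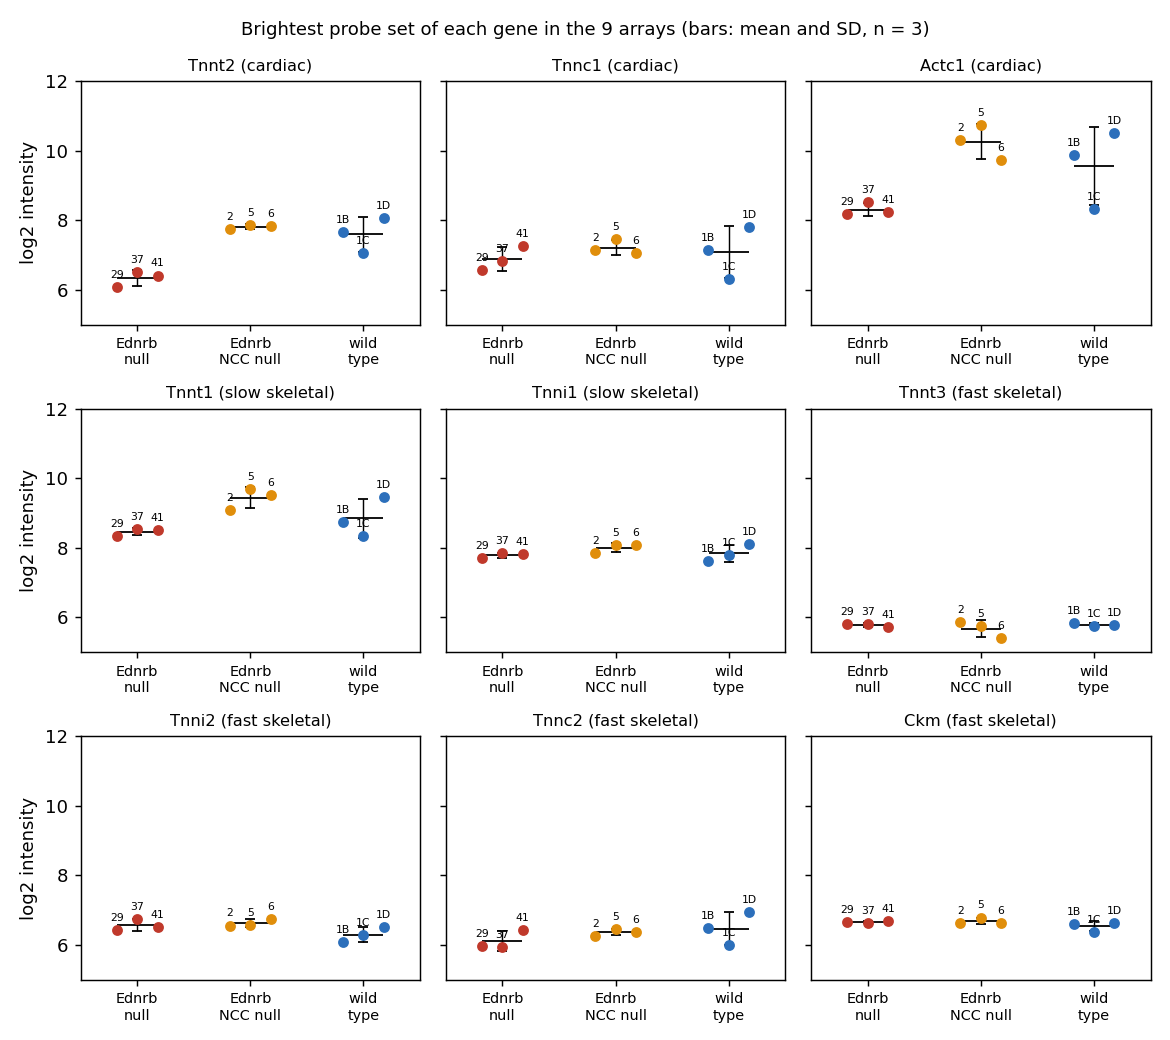
Log2 intensity of the brightest probe set of each of the 9 genes (vertical axis) in the 3 groups (horizontal axis, Ednrb null at left, then Ednrb NCC null, then wild type), 1 point per array, with bars for the group mean and SD (n = 3). Tnnt2 lies between 6.07 and 6.52 in Ednrb null hindgut, below all other arrays, and Actc1 spreads from 8.32 to 10.5 within wild type.

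The region upstream of the genes whose levels differed between groups is shown for Tnnt2, Actc1 and Tnnt1, because these are the genes with called differences. Each stretch is the 250 bases before the first RefSeq transcript start listed on GRCm38.p6, read 5′ to 3′ on the gene's strand. Capitals mark matches, on either strand, to the CArG box bound by serum response factor, the MEF2 site, the M-CAT element CATTCC bound by TEAD factors, or TATAAA. The E-box CANNTG, bound by myogenic factors such as MyoD, is so common that it is not in capitals.
Tnnt2, chr1:135836084-135836333, plus strand: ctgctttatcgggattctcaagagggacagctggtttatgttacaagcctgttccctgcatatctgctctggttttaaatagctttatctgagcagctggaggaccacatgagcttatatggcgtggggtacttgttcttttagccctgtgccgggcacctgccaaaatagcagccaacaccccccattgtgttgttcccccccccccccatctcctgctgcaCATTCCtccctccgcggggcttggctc
Actc1, chr2:114052876-114053125, minus strand: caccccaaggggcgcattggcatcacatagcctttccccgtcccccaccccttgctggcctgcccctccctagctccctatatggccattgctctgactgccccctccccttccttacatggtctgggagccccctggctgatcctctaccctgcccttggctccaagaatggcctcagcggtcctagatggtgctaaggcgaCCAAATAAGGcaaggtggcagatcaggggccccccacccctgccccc
Tnnt1, chr7:4515976-4516225, minus strand: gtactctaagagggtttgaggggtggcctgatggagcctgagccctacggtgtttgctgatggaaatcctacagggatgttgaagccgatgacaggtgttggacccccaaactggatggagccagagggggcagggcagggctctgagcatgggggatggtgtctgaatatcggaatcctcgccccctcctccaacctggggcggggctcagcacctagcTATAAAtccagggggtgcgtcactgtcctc
The Tnnt2 stretch held an M-CAT match at -27 to -22 from the start and 4 E-box matches. The Actc1 stretch held a CArG match at -47 to -38 and no E-box match. The Tnnt1 stretch held TATAAA at -30 to -25 and 1 E-box match. Of 32851 mouse promoter stretches of the same length, 12.6% held an M-CAT match, 1.47% a CArG box, 0.508% a MEF2 site, 12.4% TATAAA and 66.2% an E-box. Of the 9 genes, 7 were in the promoter table. Tnnc1 also held an M-CAT match, at -58 to -53, and the stretches of Tnni1, Tnnc2 and Ckm held E-box matches alone. A match is a description of the letters and not a bound site.

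Actc1, the cardiac alpha actin that also builds the thin filaments of embryonic skeletal muscle, was low in all Ednrb null arrays but varied within wild type. It measured 8.17, 8.52 and 8.23 in Ednrb null arrays, 10.3, 10.73 and 9.73 in Ednrb NCC null arrays and 9.88, 8.32 and 10.5 in wild type. Every Ednrb null array lay below every Ednrb NCC null array, while wild type array 1C fell inside the Ednrb null range. Actc1 fell by 1.95 in Ednrb null against Ednrb NCC null (SE 0.44, interval -2.92 to -0.98, adjusted p = 0.0325), to 25.8%. Against wild type the difference of -1.26 (SE 0.44, interval -2.24 to -0.29) was not called (adjusted p = 0.153). Without wild type array 1C that difference was -1.89 and passed (adjusted p = 0.00238). The call against Ednrb NCC null was lost when any 1 of Ednrb null arrays 29, 37 and 41 or Ednrb NCC null arrays 2, 5 and 6 was left out, with adjusted p from 0.0518 to 0.131 and differences from -2.21 to -1.72. Ednrb NCC null against wild type gave 0.69 (SE 0.44, interval -0.28 to 1.66, adjusted p = 0.494).

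Tnnc1, the calcium-binding subunit shared by heart and slow skeletal muscle, overlapped between all groups. It measured 6.58, 6.83 and 7.26 in Ednrb null arrays, 7.13, 7.45 and 7.06 in Ednrb NCC null arrays and 7.13, 6.31 and 7.81 in wild type. The lowest and the highest of the 9 arrays were both wild type. Its difference was -0.19 in Ednrb null against wild type (interval -0.87 to 0.48, adjusted p = 0.817), 0.13 in Ednrb NCC null against wild type (adjusted p = 0.891), with -0.32 between the mutants (adjusted p = 0.675). The intervals leave room for sizeable differences in either direction.

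Among the slow skeletal genes, Tnnt1, the troponin T of slow fibres, was lower in Ednrb null than in Ednrb NCC null hindgut. Tnnt1 measured 8.34, 8.53 and 8.51 in Ednrb null arrays, 9.1, 9.7 and 9.51 in Ednrb NCC null arrays and 8.74, 8.35 and 9.46 in wild type. The mutant groups did not overlap, and wild type overlapped both. Tnnt1 fell by 0.98 in Ednrb null against Ednrb NCC null (SE 0.24, interval -1.5 to -0.45, adjusted p = 0.0462), to 50.9%. Against wild type the differences were -0.39 for Ednrb null (interval -0.92 to 0.14, adjusted p = 0.46) and 0.59 for Ednrb NCC null (interval 0.06 to 1.12, adjusted p = 0.236). The call between the mutants was lost without any 1 of Ednrb null arrays 29, 37 and 41, Ednrb NCC null arrays 5 and 6, or wild type array 1B, with adjusted p from 0.0672 to 0.172. Without wild type array 1D, the difference of Ednrb NCC null against wild type was 0.89 and passed (adjusted p = 0.0237).

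Tnni1, the troponin I of slow fibres, stayed within a narrow range. It measured 7.71, 7.84 and 7.82 in Ednrb null arrays, 7.85, 8.07 and 8.09 in Ednrb NCC null arrays and 7.62, 7.78 and 8.11 in wild type. The Ednrb null arrays lay just below the Ednrb NCC null arrays, by a mean of -0.21 (interval -0.49 to 0.06, adjusted p = 0.44), and inside the wild type range. Its difference from wild type was -0.05 for Ednrb null and 0.17 for Ednrb NCC null, neither called.

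None of the 7 probe sets of the fast skeletal genes was called in any of the 3 comparisons. Tnnc2, the fast-fibre troponin C, measured 5.98, 5.93 and 6.43 in Ednrb null arrays, 6.27, 6.47 and 6.38 in Ednrb NCC null arrays and 6.48, 5.99 and 6.95 in wild type, with overlap between all groups. Its difference was -0.36 in Ednrb null against wild type (adjusted p = 0.422) and -0.26 against Ednrb NCC null (adjusted p = 0.608). Tnni2, the fast-fibre troponin I, measured 6.44, 6.76 and 6.51 in Ednrb null arrays, 6.56, 6.58 and 6.75 in Ednrb NCC null arrays and 6.08, 6.3 and 6.51 in wild type on its brightest probe set. The Ednrb NCC null arrays lay above all wild type arrays there, but the difference of 0.33 (interval 0.06 to 0.61) did not pass (adjusted p = 0.192).

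Tnnt3, the fast-fibre troponin T, was dim, at the 33.9 percentile. It measured 5.8, 5.82 and 5.71 in Ednrb null arrays, 5.86, 5.76 and 5.42 in Ednrb NCC null arrays and 5.84, 5.75 and 5.79 in wild type. Ckm, the creatine kinase that buffers ATP in muscle, measured 6.65, 6.64 and 6.69 in Ednrb null arrays, 6.64, 6.79 and 6.64 in Ednrb NCC null arrays and 6.61, 6.37 and 6.64 in wild type on its brighter probe set. The difference of Ckm from wild type was 0.12 for Ednrb null and 0.15 for Ednrb NCC null on that probe set, and -0.02 and 0.03 on the other. RMA pulls differences of dim probe sets toward 0, so those of Tnnt3 may be underestimates.

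Counted over the 14 probe sets, Ednrb null against wild type gave 2 falls, both Tnnt2, and no rise. Over the whole array 5.03% of probe sets were called in this comparison, 2.52% as lower. Ednrb NCC null against wild type gave no call among the 14, with 3 at an unadjusted p under 0.05, where 3.58% of all probe sets were called, 1.51% as lower, and 17% had an unadjusted p under 0.05. Ednrb null against Ednrb NCC null gave 4 falls in 3 genes (both Tnnt2 probe sets, Actc1 and Tnnt1) and no rise, where 4.41% of all probe sets were called and 2.57% as lower. The median difference of the 14 was -0.03, 0.16 and -0.2 in these comparisons, beside 0.034, 0.008 and 0.024 over all probe sets. Ednrb null arrays lay wholly below the wild type arrays for 2 of the 14 probe sets, beside 7.93% of all probe sets, and wholly below the Ednrb NCC null arrays for 5, beside 9.28%.

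**Figure D2:**
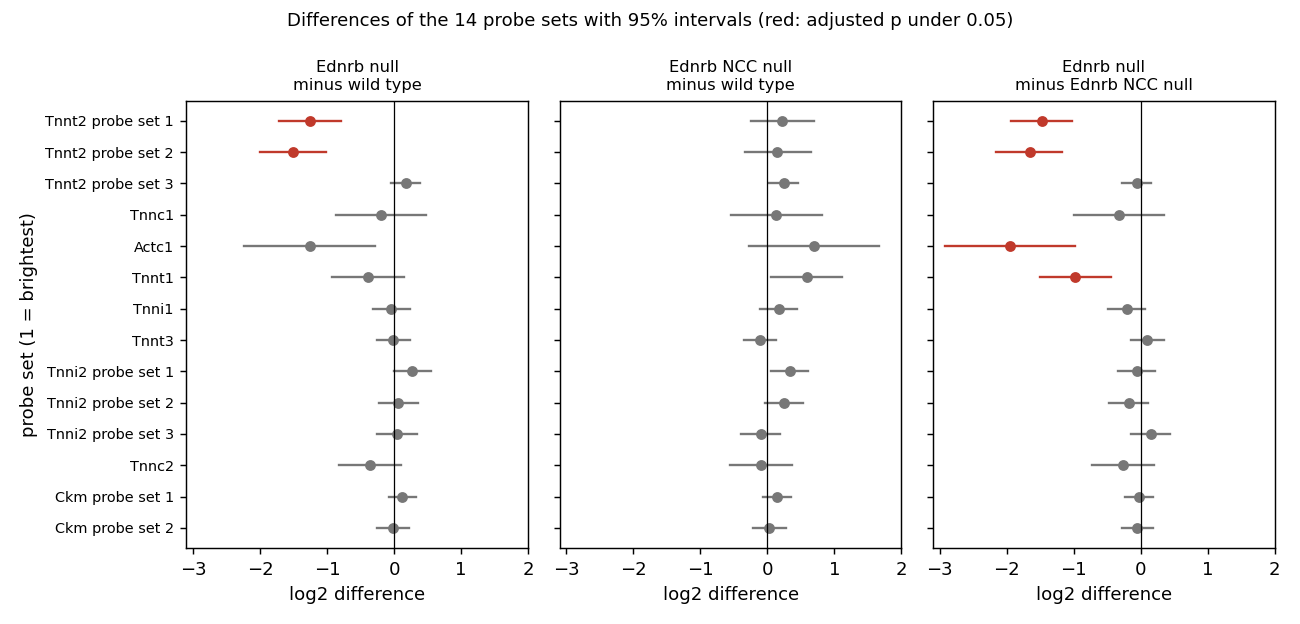
Log2 difference (horizontal axis) with its 95% confidence interval for each of the 14 probe sets (vertical axis) in the 3 comparisons, from the fit over all probe sets. The intervals of the brighter Tnnt2 probe sets lie below 0 in both comparisons of Ednrb null. Among the fast skeletal genes, Tnni2 reaches 0.33 in Ednrb NCC null against wild type and Tnnc2 -0.36 in Ednrb null against wild type, neither called.

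By isoform class, calls and their absence were mixed among the cardiac and slow skeletal genes. Of the 3 cardiac genes, Tnnt2 fell against both other groups, Actc1 against Ednrb NCC null, and Tnnc1 in no comparison. Of the 2 slow skeletal genes, Tnnt1 fell against Ednrb NCC null and Tnni1 in no comparison. None of the 4 fast skeletal genes was called. Differences between the classes were not tested.

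Probe sets of other skeletal muscle genes were mostly dim, and some of them varied between arrays. Of 27 other skeletal muscle genes measured, 19 were dim, and their summed intensity ranged from 1408 to 1775 in Ednrb null arrays, 1711 to 1913 in Ednrb NCC null arrays and 1429 to 2319 in wild type. Myog, the myogenic factor of differentiating muscle, measured 5.79, 5.54 and 6.6 in Ednrb null arrays, 6.64, 7.15 and 6.4 in Ednrb NCC null arrays and 6.82, 5.93 and 7.61 in wild type. Myh3, the embryonic myosin heavy chain, whose probe set was dim, measured 5.25, 5.31 and 6.31 in Ednrb null arrays, 6.15, 6.66 and 6.27 in Ednrb NCC null arrays and 6.38, 5.24 and 7.41 in wild type. For both genes, Ednrb null arrays 29 and 37 and wild type array 1C were the 3 lowest arrays, and wild type array 1D was the highest.

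Of these 27 genes, 1 was called in Ednrb null against wild type, beside 5.03% of all probe sets. In Ednrb null against Ednrb NCC null 2 were called, beside 4.41% of all probe sets. In Ednrb null against wild type, Ryr1, the calcium release channel of skeletal muscle, whose probe set was dim, fell by 0.68 (adjusted p = 0.0229) and no gene rose. Against Ednrb NCC null, Ryr1 fell by 0.71 (adjusted p = 0.0232) and Myh1, a fast myosin heavy chain that was also dim, fell by 0.87 (adjusted p = 0.0158). No gene of the list was called in Ednrb NCC null against wild type. The list's median difference was -0.09 in Ednrb null against wild type, 0.01 in Ednrb NCC null against wild type, with -0.06 between the mutants.

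**Figure D3:**
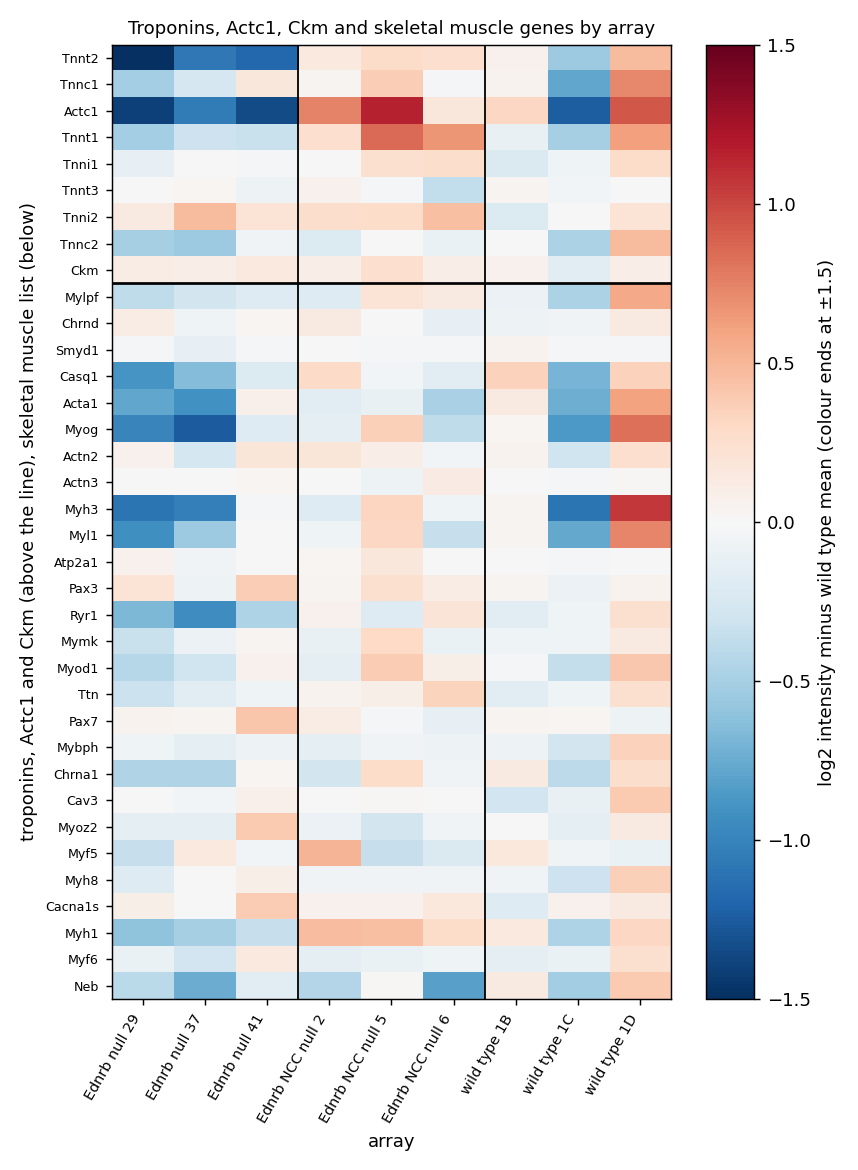
Deviation of each array from the wild type mean (colour, log2) for the troponins, Actc1 and Ckm (rows above the line) and for skeletal muscle genes (rows below), with the Ednrb null arrays in the left columns, Ednrb NCC null in the middle and wild type at right. Tnnt2 is low in all 3 Ednrb null arrays, whereas Myog and Myh3 are low in Ednrb null arrays 29 and 37 and wild type array 1C.

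Single arrays with similar means of the skeletal muscle list, picked after the values were seen and not tested, are given as a description. Ednrb null array 41 and wild type array 1B had nearly the same list mean, 5.7 and 5.68, and nearly the same Tnnc1, 7.26 and 7.13. Tnnt2 was 6.41 in Ednrb null array 41 and 7.66 in wild type array 1B, and Actc1 was 8.23 and 9.88. Where the list was low, with means of 5.36 and 5.35 in Ednrb null arrays 29 and 37 and 5.38 in wild type array 1C, the values were as follows. Actc1 was 8.17 and 8.52 in the Ednrb null arrays and 8.32 in wild type array 1C. Tnnt2 was 6.07 and 6.52 in the Ednrb null arrays and 7.05 in wild type array 1C. Tnnc1 was 6.58 and 6.83 in the Ednrb null arrays and 6.31 in wild type array 1C.

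With the list mean as a covariate, a setting added after seeing the data, the Tnnt2 differences in Ednrb null against wild type were -1.39 and -1 (adjusted p = 0.0101 and 0.00638). Against Ednrb NCC null they were -1.54 and -1.22 (adjusted p = 0.0101 and 0.00395). Those of Actc1 and Tnnt1 against Ednrb NCC null were -1.41 (adjusted p = 0.0576) and -0.69 (adjusted p = 0.0957) and were not called. This covariate does not settle the part of skeletal muscle content in the differences, which was not tested. The list mean was measured on the same arrays, and 19 of its 27 genes were dim.

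**Figure D4:**
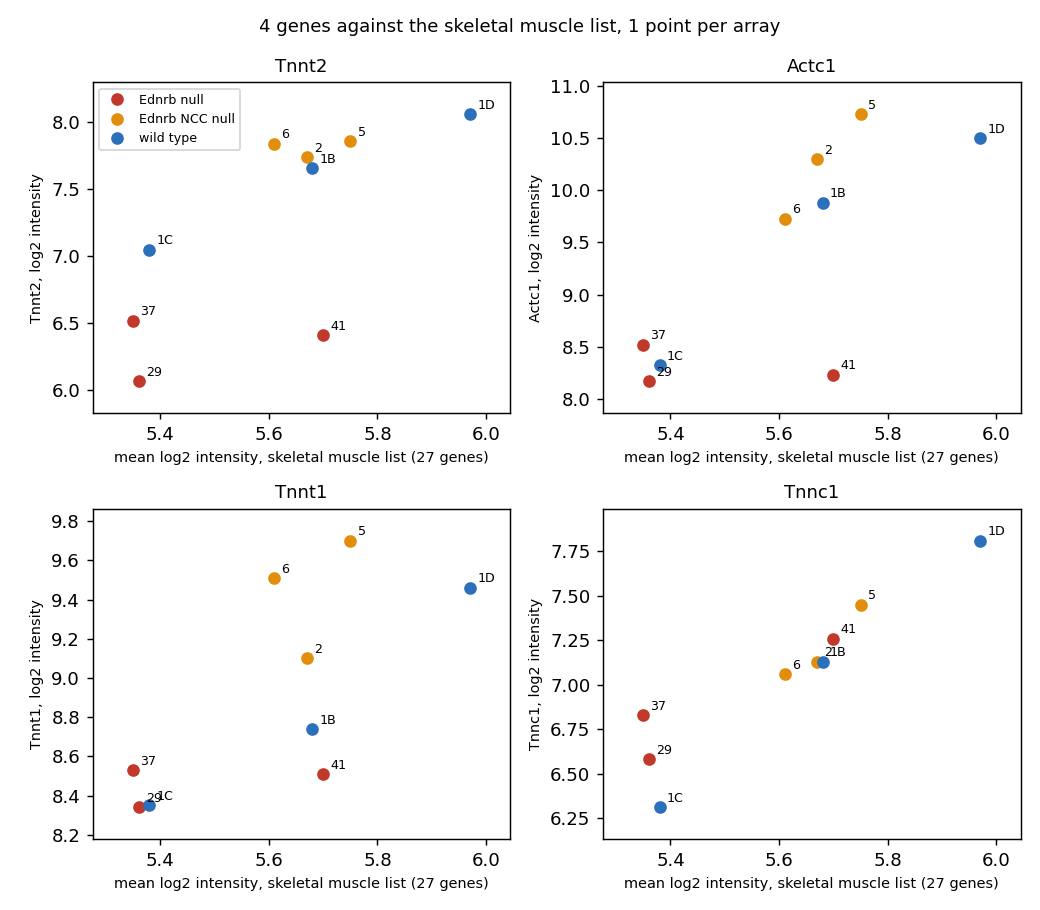
Log2 intensity of Tnnt2, Actc1, Tnnt1 and Tnnc1 (vertical axes) against the mean log2 intensity of 27 other skeletal muscle genes (horizontal axis), 1 labelled point per array. At list means near 5.7, Tnnt2 is 6.41 in Ednrb null array 41 and 7.66 in wild type array 1B, while Tnnc1 is 7.26 and 7.13. These arrays were picked after the values were seen, and the difference between them was not tested.

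Of 18 heart muscle genes, 8 were dim and 10 were not, and percentiles of different probe sets are not levels to set against each other. Myh6, the atrial myosin heavy chain, was at the 5.79 percentile of all probe sets. Nppa, the atrial natriuretic peptide gene, was at the 6.62 percentile. Of other chamber genes, Myl2 and Myl7 were dim, at 14.5 and 38.4, while Myh7, Myl4 and Myl3 were at 45.2, 43.3 and 51.5. The summed intensity of the 18 genes was 1363 to 1547 in Ednrb null arrays, 1629 to 1757 in Ednrb NCC null arrays and 1314 to 1592 in wild type. In Ednrb null against wild type 2 of the 18 rose, where 5.03% of all probe sets were called. They were Tnni3, by 0.34 (adjusted p = 0.0423), and Ryr2, the calcium release channel of heart muscle, by 0.64 (adjusted p = 0.0453). In Ednrb NCC null against wild type Myl7, an atrial myosin light chain, rose by 0.74 (adjusted p = 0.0169). Its probe set was dim, and 3.58% of all probe sets were called in that comparison. Between the mutants none of the 18 was called, beside 4.41% of all probe sets.

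Tnni3, the cardiac troponin I, thus differed in the opposite direction to Tnnt2. It measured 6.63, 6.83 and 6.71 in Ednrb null arrays, 6.63, 6.75 and 6.63 in Ednrb NCC null arrays and 6.36, 6.42 and 6.37 in wild type. All arrays of both mutants lay above wild type, and the mutants overlapped. Tnni3 is the direct neighbour of Tnnt1 on chromosome 7 in RefSeq, with 0 protein-coding genes between them, and Tnnt2 and Tnni1 on chromosome 1 are separated by 1, Lad1. Among the 5 measured genes on either side of Tnnt2, Tnnt1 or Actc1, chosen after the values were seen, only Tnni3 was called. That call was in Ednrb null against wild type, where 5.03% of all probe sets were called. The neighbours of Tnnt2 ranged there from -0.98 to 0.22.

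Most genes of a list of thin filament relatives, which also held the other creatine kinases Ckb, Ckmt1 and Ckmt2, did not pass the test. Of these 20 genes, Ednrb null against wild type gave 1 rise (Tnni3) and 2 falls, where 5.03% of all probe sets were called. The falls were Tmod4, a pointed-end capping protein of skeletal muscle actin, by 0.65 (adjusted p = 0.00618), and Ckb, the brain-type creatine kinase, by 0.7 (adjusted p = 0.0378). Ckmt1, a mitochondrial creatine kinase, measured 9.32, 9.92 and 8.92 in Ednrb null arrays, 10.59, 11.09 and 10.85 in Ednrb NCC null arrays and 9.38, 8.97 and 9.77 in wild type. Ckmt1 rose by 1.47 in Ednrb NCC null against wild type (adjusted p = 0.0102), the single call there, beside 3.58% of all probe sets. It fell by 1.45 in Ednrb null against Ednrb NCC null (adjusted p = 0.00897), again the single call, beside 4.41%.

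No other actin gene on this list was called in any of the 3 comparisons. For the skeletal alpha actin Acta1, the difference was -0.54 in Ednrb null against wild type (adjusted p = 0.437) and -0.28 against Ednrb NCC null (adjusted p = 0.738). The smooth muscle actins Acta2 and Actg2 gave -0.2 (adjusted p = 0.272) and -0.18 (adjusted p = 0.639) between the mutants, and the cytoplasmic actins Actb and Actg1 gave 0.12 and 0.16. The tropomyosins, to which troponin T binds, ranged there from -0.16 (Tpm2) to 0.25 (Tpm3), with none called.

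Of 18 visceral smooth muscle genes, 2 fell in Ednrb null against Ednrb NCC null, where 4.41% of all probe sets were called. The other 16 were not called, but 14 of the 18 were lower. The list's median difference was -0.23, beside 0.024 over all probe sets. The summed intensity of the 18 was 70110 to 85171 in Ednrb null arrays, 91290 to 106725 in Ednrb NCC null arrays and 80935 to 88951 in wild type, without overlap between the mutants. Cnn1, the smooth muscle calponin, fell by 1.01 (adjusted p = 0.00226) and Tagln by 0.92 (adjusted p = 0.0096) in Ednrb null against Ednrb NCC null. Myocd, among the 4 genes that were higher there, gave 0.52 and was not called (adjusted p = 0.0828). Against wild type, Cnn1 fell by 0.51 in Ednrb null (adjusted p = 0.0497), and Kcnmb1 and Hspb6 rose by 0.57 and 0.45 in Ednrb NCC null (adjusted p = 0.0171 and 0.0367). The part of smooth muscle in the differences of Tnnt2, Actc1 and Tnnt1 was not tested.

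The Actb 3′ to 5′ ratio, a measure of RNA quality, and some marker genes of other cell types also differed between some groups. The log2 ratio of 3′ to 5′ Actb control probe sets was 0.87 ± 0.06 in Ednrb null arrays, 1.21 ± 0.18 in Ednrb NCC null arrays and 1.18 ± 0.13 in wild type (SD, n = 3 each). Ednrb null arrays did not overlap the others on this ratio, so as a covariate it cannot be separated from the group. With that ratio as a covariate, the Tnnt2 differences were -1.45 and -1.24 against wild type (adjusted p = 0.12 and 0.172) and -1.6 and -1.46 against Ednrb NCC null (adjusted p = 0.116 and 0.127), so none of the 14 probe sets was called. Of 11 enteric neural crest genes, 6 fell in Ednrb null against wild type, 5 fell in Ednrb NCC null against wild type, and 2 (Erbb3 and Ednrb) fell in Ednrb null against Ednrb NCC null. Of 11 gut epithelium genes, 2 fell, 3 rose and 6 fell in the same 3 comparisons. Over the whole array 5.03%, 3.58% and 4.41% of probe sets were called in them, in that order. The part of these cell types in the differences of Tnnt2, Actc1 and Tnnt1 was not tested.

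Over the 9 arrays, the genes most like each of the 5 genes above the array's median level were taken by Pearson's r from 18184 candidates, as a description in which the points share their groups. For Tnnt2 they were Trak1 (0.983), Ly6h (0.981) and Pde8b (0.976). For Tnnc1 they were Fgf18 (0.974), Myl1 (0.96) and Myh3 (0.954), of which the last 2 are on the skeletal muscle list. For Actc1 they were Col8a2 (0.973), Myh1 (0.967), which is also on that list, and Adamdec1 (0.965). For Tnnt1 they were Rasa4 (0.978), Ppp1r1b (0.969) and Mal (0.966), and for Tnni1 Gng11 (0.977), Antkmt (0.96) and Mt3 (0.959). No gene appeared in more than 1 of these 5 sets.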

How the data were processed

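The authors deposited an intensity for each probe set on each array, from RMA per the submitters' processing notes, which give no version. These linear values were taken to log2 here, with no pseudocount and no further normalization. After removing 64 array controls from 45101 probe sets, 45037 were fitted with limma 3.58.1 (lmFit and eBayes, no trend, not robust) in R 4.3.3, with a mean per group over all 9 arrays. Tests were 2-sided and adjusted by Benjamini-Hochberg over all 45037. Precision is limited by the number of arrays, since arrays carry no read depth.

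The genes and lists were chosen with earlier results of these data known. Lists were summarised by the brightest probe set of each gene. All 9 genes, all thin filament relatives, up to 4 genes per list with the smallest p in each comparison, and the 3 genes most like each gene above the median were eligible to be named; further genes were named from these lists after their values were seen. Promoters came from RefSeq (GRCm38.p6). The fit was tested on simulated data. Alternatives covered scaling, filtering, the summary per gene, the spread, covariates and leaving out each array.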

Additional observations from a re-analysis of the deposited data

Results flagged for a closer look

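For 3 genes a difference between the mutant groups was called, Ednrb null minus Ednrb NCC null (limma). It was -1.66 (adjusted p = 0.00271) and -1.48 (adjusted p = 0.00356) for the brighter Tnnt2 probe sets, with all 3 Ednrb null arrays below all 3 Ednrb NCC null arrays. It was -1.95 for Actc1 (adjusted p = 0.0325) and -0.98 for Tnnt1 (adjusted p = 0.0462), also without overlap. These calls were lost when single arrays were left out, and neither gene was called in either mutant against wild type. With the Actb 3′ to 5′ ratio as a covariate all 4 calls were lost, at -1.6 and -1.46 for Tnnt2 (adjusted p = 0.116 and 0.127), -1.81 for Actc1 (adjusted p = 0.411) and -1.32 for Tnnt1 (adjusted p = 0.203). Groups of 3 arrays are too small for the test for outlying samples used here.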

How the results depend on the processing

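No alternative turned the direction of a called gene. Of 798 recomputed values of single probe sets, 741 kept their direction and side of the threshold, 23 lost a call and 2 gained one. In the other 32, none called, the sign changed, with sizes up to 0.28. The probe sets called among the 14 numbered 2 for Ednrb null against wild type. They were 1 with the brightest probe set or the mean of each gene, by construction, 0 with the Actb 3′ to 5′ ratio as a covariate, and 2 to 3 when 1 array was left out. For Ednrb NCC null against wild type the 0 calls became 0 to 1 when 1 array was left out. Between the mutants the 4 calls became 2 with eBayes trend and robust, 0 with the Actb ratio, 2 with the skeletal muscle list mean, and 2 to 4 when 1 array was left out. Over the whole array, the 2265 calls of Ednrb null against wild type became 917 with the brightest probe set, 982 with the gene mean and 539 with the Actb ratio, and 1330 to 2358 when 1 array was left out. The 1611 of Ednrb NCC null against wild type became 1042 with only the compared groups, 902 with the brightest probe set, 932 with the gene mean and 2871 at an adjusted p under 0.10, and 716 to 1971 when 1 array was left out. The 1984 between the mutants became 3709 with array weights, 1187 with the brightest probe set, 1216 with the gene mean, 283 with the Actb ratio, 1209 with the skeletal muscle list mean and 3164 at an adjusted p under 0.10, and 866 to 2061 when 1 array was left out. Fewer features were tested in the per-gene settings; otherwise the cause was not tested. No paired analysis was possible because the sample titles share no replicate numbers across groups. Signal over background limits the dim fast skeletal probe sets.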

Other observations

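The remaining marker lists were measured in the same fit. Of 4 genes of interstitial cells of Cajal and 8 of endothelium, none was called in any of the 3 comparisons. Of 9 mesothelium genes, Msln rose in Ednrb NCC null against wild type and Krt19 fell in Ednrb null against Ednrb NCC null. All 9 were higher in Ednrb NCC null than in wild type on the mean, with 1 called. Wild type array 1B was low on most of this list: Upk3b was 10.16, 10.46 and 10.4 in Ednrb NCC null arrays and 6.04, 9.76 and 9.3 in wild type arrays 1B, 1C and 1D. Of 8 cartilage genes, 2 rose in Ednrb null against wild type and 3 (Col2a1, Col11a1 and Col9a1) against Ednrb NCC null, with Col2a1 higher by 1.11. The other 6 and 5 were not called, among them Sox9, at -0.03 and 0 in these 2 comparisons. Of 7 red blood cell genes, 2 rose in Ednrb null against wild type, 1 in Ednrb NCC null against wild type, with 2 between the mutants.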
